A study of Mus musculus with 8 samples.

Results

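The protein components of the cytosolic ribosome were followed in bulk RNA-seq of tumor-associated macrophages (TAMs). Members were protein-coding genes named Rpl or Rps with a digit, plus Rpsa, Rplp0, Rplp1 and Rplp2; kinases of the Rps6k families and names with -ps, which mark pseudogenes, were left out. The rule took 85 of the 26939 genes in the joined count tables. Of these, 51 carry large-subunit names, 33 small-subunit names, and Rps19bp1 was taken by its symbol although it encodes a binding partner of Rps19 and not a ribosomal protein.

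The ribosome translates mRNA into protein and consists of a small subunit, which reads the message, and a large subunit, which forms the peptide bonds. Its proteins are made in near-equal amounts from very abundant, short mRNAs, many of which begin with a run of pyrimidines at the transcription start that couples their translation to mTORC1 signaling. In macrophages, as in other cells, this gene set is a large part of the mRNA pool and is tied to growth and activation.

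TAMs were sorted as CD45+ CD11b+ F4/80+ Gr-1- cells on day 21 from EO771 tumors, a mouse mammary carcinoma line, grown in female mice 8 to 14 weeks old. The mice were wild type (WT) or Unc93b1 3d/3d, a strain whose endosomal Toll-like receptors lack function because a point mutation disables the chaperone UNC93B1. Each genotype gave 2 control libraries and 2 libraries after αMARCO, 100 μg of the rat IgG1 clone ED31 on days 3, 6, 9 and 12, which binds the scavenger receptor MARCO. The labels call the controls untreated and their library names read PBS, whereas the protocol gives a rat IgG1 isotype antibody, and 1 Unc93b1 3d/3d control carries a genotype tag that differs from its title. The control libraries were each pooled from 3 mice, and all cells shared the tumor line and the sort. Gene counts cannot check a point mutation, so the genotypes rest on the labels. With 2 libraries a group, p-values measure the spread between these samples, and for the αMARCO groups the sources used here do not say whether it is between animals.

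The shortest members carry the clearest change in these data, so the coding sequences of 3 of them are shown from the GENCODE M21 transcripts, start codon in capitals and stop codon not included. Every 50-base window of these 3 sequences, and of Rps29, also occurs in a transcript of another gene. How the counting divided such reads was not tested. Coding lengths of all members ran from 75 to 1257 bases with a median of 453. Rpl41, at chr10:128548114-128549305 on the minus strand, has 75 bases of coding sequence. Rps28, at chr17:33819027-33824562 on the minus strand, has 207, and Rpl38, at chr11:114668524-114672331 on the plus strand, has 210 (all GRCm38).
Rpl41: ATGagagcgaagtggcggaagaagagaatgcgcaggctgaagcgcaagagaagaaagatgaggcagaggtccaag
Rps28: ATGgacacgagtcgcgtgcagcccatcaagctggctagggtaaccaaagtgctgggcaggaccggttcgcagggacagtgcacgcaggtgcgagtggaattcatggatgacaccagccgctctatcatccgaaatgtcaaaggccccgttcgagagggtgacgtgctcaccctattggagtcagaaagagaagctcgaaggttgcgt
Rpl38: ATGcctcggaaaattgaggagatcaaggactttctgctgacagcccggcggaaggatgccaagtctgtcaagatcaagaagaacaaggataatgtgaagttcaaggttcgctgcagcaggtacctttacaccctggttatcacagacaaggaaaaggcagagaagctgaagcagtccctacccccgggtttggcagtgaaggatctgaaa

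Starts of transcription are shown for 3 members because the pyrimidine run is the known common feature of the family. RefSeq windows (GRCm38.p6, 250 bases before to 50 after a start) matched 65 of the 85 members in 77 windows. The 30 bases below run from 15 before to 15 after the start, with the longest pyrimidine run in capitals. Rpl38 lies at chr11:114668565-114668594 on the plus strand, Rps6 at chr4:86857353-86857382 on the minus strand and Rps28 at chr17:33824548-33824577 on the minus strand.
Rpl38: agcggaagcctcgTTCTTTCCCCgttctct
Rps6: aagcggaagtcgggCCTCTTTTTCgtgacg
Rps28: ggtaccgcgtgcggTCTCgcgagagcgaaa

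Rpl38 and Rps6 have runs of 10 pyrimidines across the start, and Rps28 has none longer than 4 in this window. In the same window of Rpl28, Rplp0, Rpl5 and Rps3 the longest runs were 11, 5, 4 and 3. A C followed by 5 pyrimidines on the sense strand within 5 bases of the start occurred in 17 of the 77 member windows (22.1%) and in 4.89% of all 32851 windows. CCGGAAG on either strand was in 35.1% of member windows and 8.86% of all windows. CTTTCC on either strand was in 50.6% against 26.6%. TATAAA on either strand was in 9.09% against 13.6%. These are letter matches and were not tested against expression.

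Libraries held 15182618 to 26411936 counts over genes, TMM scaling factors lay between 0.908 and 1.05, and the 12 macrophage and sort markers were present in every library with a summed level of 12019 to 18796 CPM (counts scaled to a common library size). The second Unc93b1 3d/3d αMARCO library stood apart. Its protein-coding genes of over 500 and up to 1000 bases sat 0.53 above their mean over 8 libraries on the log2 scale and those over 6000 bases 0.31 below it. For the comparisons that use this library, the median is therefore also given without it. Any fit that leaves out 1 library keeps 1 in its group, whose spread is then assumed and not measured.

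Ribosomal protein genes took between 2.69% and 5.35% of all counts, and the share followed the group in 3 of the 4 groups. In WT control libraries the share was 4.17% and 3.99%. In Unc93b1 3d/3d control libraries it was 3.15% and 3.30%. In WT αMARCO libraries it was 2.69% and 2.83%. These 3 groups did not overlap. The Unc93b1 3d/3d αMARCO libraries gave 3.02% and 5.35%, the second being the highest of all 8 and the first lower than every control. The group means were 4.08% ± 0.126, 3.23% ± 0.103, 2.76% ± 0.100 and 4.19% ± 1.64 (SD, n = 2) in the same order. The exact 95% binomial interval of the highest share ran from 5.34% to 5.36%, and such intervals cover counting error only. Both subunits moved together: the ratio of large-subunit to small-subunit counts was 1.30 to 1.40 in all libraries.

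**Figure D1:**
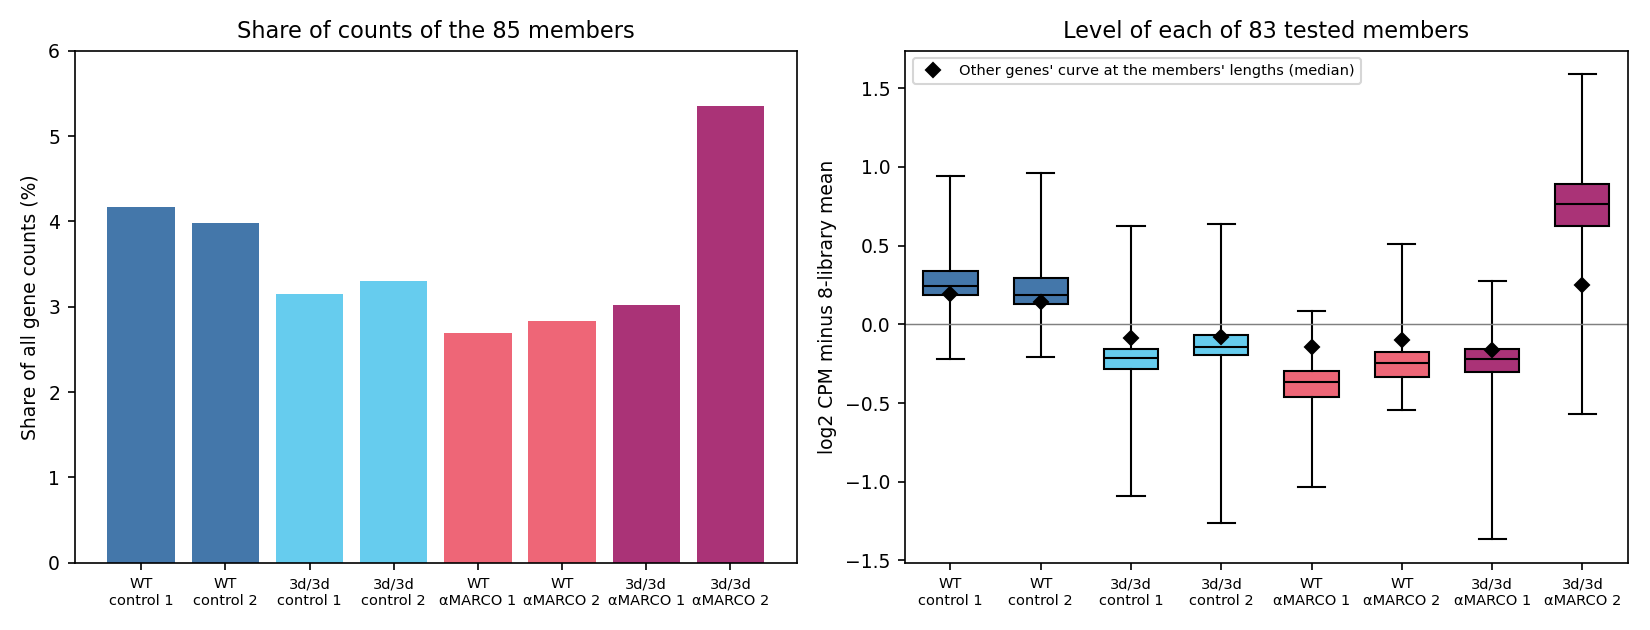
Left, percent of all gene counts from the 85 ribosomal protein genes in each library. Right, log2 CPM minus the mean over 8 libraries for 83 tested members (box, quartiles with the median; whiskers, full range), with a diamond at the level that other protein-coding genes of the same length have in that library. The second Unc93b1 3d/3d αMARCO library is highest in both plots, and its box lies above its diamond.

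Each library had a length profile of its own, and members deviated in the same direction as other short genes in all 8. For genes that are no member, the median at over 500 and up to 1000 bases minus that over 6000 bases was 0.32 and 0.26 for the WT control pair and -0.35 and -0.25 for the WT αMARCO pair. For the Unc93b1 3d/3d pairs it was -0.22 and -0.14 without and -0.45 and 0.83 with αMARCO. The median member deviated by 0.25 and 0.19 for WT and by -0.21 and -0.14 for Unc93b1 3d/3d among controls. After αMARCO it deviated by -0.37 and -0.25 in WT and by -0.22 and 0.77 in Unc93b1 3d/3d.

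Members deviated further than other genes of their length. A curve of deviation against deposited gene length, fitted in each library to protein-coding genes that are no member, had a median of 0.25 at the members' lengths in the second Unc93b1 3d/3d αMARCO library. Members were at 0.77 there, a median of 0.55 above the curve, and 77 of 83 lay above it. In its replicate 19 of 83 lay above the curve, with a median of 0.07 below. In the WT αMARCO libraries members lay 0.24 and 0.16 below their curves, with 3 and 11 of 83 above. In the WT control libraries they lay 0.08 and 0.06 above, with 64 and 62 of 83 above. Curves on coding length placed the same medians 0.53 above, 0.07 below, 0.21 and 0.14 below, and 0.09 and 0.07 above.

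**Figure D2:**
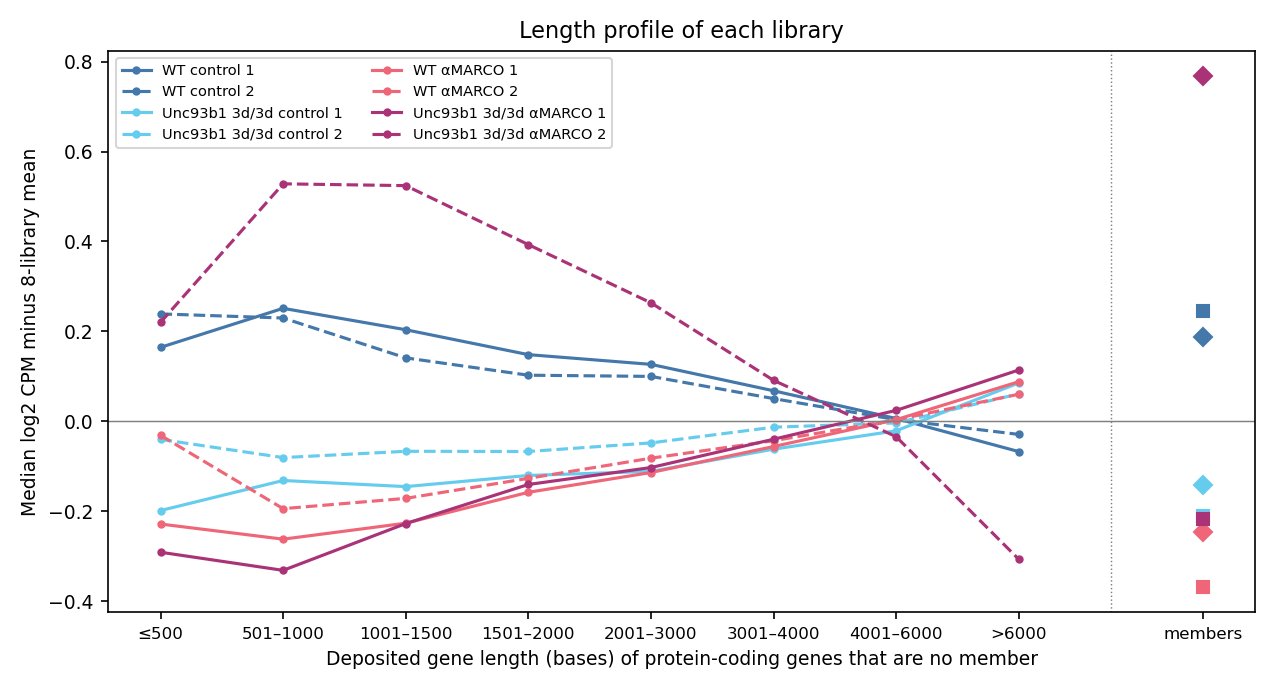
Median log2 CPM minus the 8-library mean (y axis) for protein-coding genes that are no member in bins of deposited gene length in bases (x axis), 1 line per library (solid, replicate 1; dashed, replicate 2), with the median of 83 members at the right (square, replicate 1; diamond, replicate 2). Genes of over 500 and up to 1000 bases are raised in the second Unc93b1 3d/3d αMARCO library and in both WT control libraries and lowered in the other 5, and the members are on the same side.

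Other abundant housekeeping lists moved with the members in the second Unc93b1 3d/3d αMARCO library. Above the length curve stood mitochondrial ribosomal proteins by a median of 0.44 (76 genes), proteasome subunits by 0.40 (39 genes), translation factors by 0.35 (46 genes), nuclear oxidative phosphorylation subunits by 0.34 (80 genes) and ribosome biogenesis factors by 0.21 (55 genes). The members' 0.55 was higher than each of these medians, and the difference from them was not tested. Of marker lists in this library, macrophage and sort markers summed to 18796 CPM against 12019 to 14870 in the other 7. T cell markers summed to 89.1 CPM against 96.0 to 267. Classical monocyte markers were also highest there, at 1340 CPM, and endothelial and neutrophil markers lowest, at 148 and 208 CPM. At 0 there were 6 of 10 tumor epithelial and 5 of 10 neutrophil markers. Their part in the members' level was not tested.

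In WT mice, ribosomal protein mRNA was lower after αMARCO in nearly all members, and short members had the lowest values, apart from Rpl17. Called here means an adjusted P of at most 0.05 and a log2 fold change of at least 0.5 in either direction by edgeR's quasi-likelihood test. Of 84 members tested, 43 fell and 0 rose, where 11.8% of the 15630 genes tested fell and 8.91% rose. By adjusted P alone 73 fell, against 19% of genes. The median member had a log2 fold change of -0.52, with quartiles of -0.67 and -0.41, and the median gene -0.01. Both αMARCO libraries lay below both controls for 80 of 84 members, which held for 36.8% of genes, and above them for 1 (Rpl21), against 34.1%. Calls came from both subunits: 25 of 50 large-subunit and 18 of 33 small-subunit members.

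Correction for gene length kept the sign of the median member and removed most calls. Members above 0 went from 1 to 11 of 84, and 2 of these were higher by adjusted P alone. After it 13 members fell, against 6.5% of genes, and the median member was at -0.27. The correction also moved the median gene from -0.01 to 0.10, so relative to the median gene the members went from -0.51 to -0.37. Fitting all 8 libraries in 1 model, whose spread includes the library that stood apart, left 2 calls. In that model 119 of 16620 genes were called lower and 45 higher.

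Several marker lists of other cells also differed in the WT αMARCO libraries. The 16 T cell markers summed to 260 and 267 CPM in WT control and to 98.4 and 131 CPM after αMARCO, with none at 0 in any library. The 10 dendritic cell markers went from 953 and 678 CPM to 345 and 364 CPM, the 10 NK cell markers from 117 and 103 CPM to 46.3 and 52.5 CPM, and the 16 proliferation markers from 1054 and 1196 CPM to 775 and 773 CPM. The 10 fibroblast markers went from 119 and 95 CPM to 47.1 and 32.2 CPM, whereas the 10 neutrophil markers went from 307 and 310 CPM to 375 and 378 CPM. Their part in the members' values was not tested, and in bulk RNA fewer cells of a type and less RNA per cell cannot be told apart.

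Rps29, a zinc-binding protein of the small-subunit head, had 590 and 626 CPM in WT control and 220 and 257 CPM in WT αMARCO libraries. Unc93b1 3d/3d gave 479 and 503 CPM in control and 186 and 235 CPM in αMARCO libraries. All 4 αMARCO libraries lay below all 4 controls, including the library in which short genes were raised.

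Rps28, a small-subunit protein near the mRNA exit, had 291 and 254 CPM in WT control and 102 and 119 CPM in WT αMARCO libraries. The Unc93b1 3d/3d libraries had 191 and 210 CPM in control and 102 and 148 CPM in αMARCO libraries. Again no αMARCO library reached a control.

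Rpl38, a large-subunit protein whose loss in mice alters patterning of the axial skeleton, had 292 and 300 CPM in WT control and 118 and 144 CPM in WT αMARCO libraries. In Unc93b1 3d/3d it had 234 and 249 CPM in control and 120 and 206 CPM in αMARCO libraries. The highest αMARCO library lay below the lowest control. How many of all genes are separated this way over 8 libraries was not counted. Within a genotype, both αMARCO libraries lay below both controls for 36.8% of genes in WT and 19.2% in Unc93b1 3d/3d. Rps29 and Rps28 were among the members named by their fold changes in these same libraries. Rpl38 is 1 of the members named after their values were seen, together with Rpl37, Rps21, Rpl30 and Rps13.

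**Figure D3:**
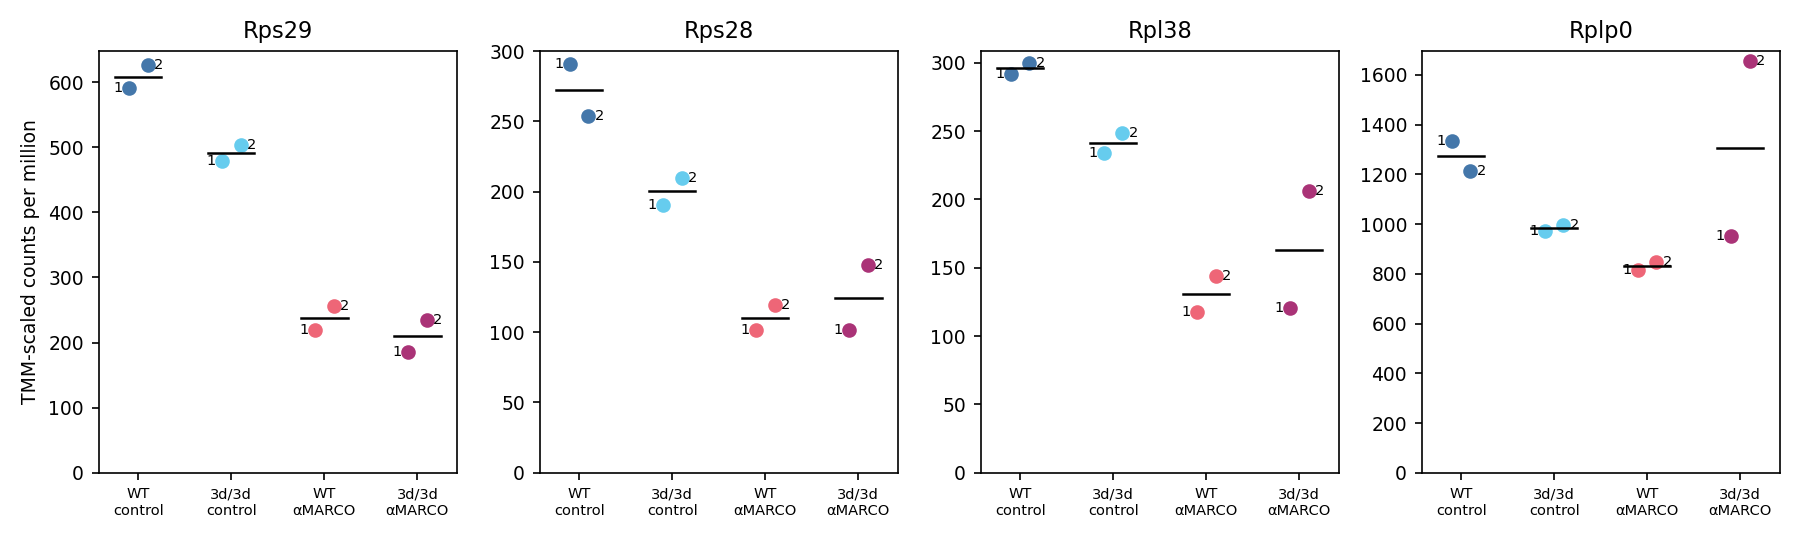
TMM-scaled CPM of Rps29, Rps28, Rpl38 and Rplp0 by group; points are libraries with their replicate number and the line is the mean of 2. Rps29, Rps28 and Rpl38 are lower in all 4 αMARCO libraries than in any control, and Rplp0 is highest in the second Unc93b1 3d/3d αMARCO library. The share of all genes separated this way was not counted.

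The test found all 3 lower in WT. Rps29 fell by 1.35 ± 0.098 (SE) on the log2 scale with an adjusted P of 5.8e-05. Rps28 fell by 1.30 ± 0.10 with an adjusted P of 7.9e-05, and Rpl38 fell by 1.17 ± 0.10 with an adjusted P of 0.00011. With the gene length correction the values were -0.95, -0.97 and -0.75, and with a correction on coding length -1.06, -1.0 and -0.88, all called. The other 68 protein-coding genes with a coding length of up to 210 bases had a median of -0.35 before correction, with 26 called lower and 4 called higher. In 1 model of 8 libraries the adjusted P was 0.030 for Rps29, 0.038 for Rps28 and 0.069 for Rpl38, so the last was not called.

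In Unc93b1 3d/3d mice the fold changes of these 3 genes were -1.21 ± 0.25, -0.68 ± 0.27 and -0.55 ± 0.31, none called, with adjusted P of 0.82 each by edgeR. DESeq2 called Rps29 there, with an adjusted P of 0.0066. Without the library that stood apart, which leaves 1 αMARCO library in that genotype, the values were -1.40, -0.98 and -1.0. The αMARCO effect averaged over both genotypes, a comparison added after seeing the data, was -1.29 ± 0.12 for Rps29 (adjusted P = 0.016), -0.99 ± 0.14 for Rps28 (adjusted P = 0.024) and -0.87 ± 0.17 for Rpl38 (adjusted P = 0.050, just over the threshold). Rps29 and Rps28 were 2 of 83 members called there, where 1.08% of genes were called lower and 0.77% higher (0.776% by adjusted P alone). Leaving out any 1 of the control or WT αMARCO libraries ended both calls and nearly all calls of other genes. Such fits assume that the arm left with 1 library varies like the others. With the gene length correction all 3 were called, against 2.09% of genes lower and 2.53% higher, and the median member was at 0.057 beside 0.085 for the median gene. Without the second Unc93b1 3d/3d αMARCO library 12 members were lower and 0 higher, against 5.73% and 3.98% of genes.

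Most of the remaining short members were also called lower in WT, and Rps27rt (252 bases, -0.14) and Rpl39l were not. Rpl41, a basic peptide and the highest member per coding length, had 810 and 804 CPM in control and 383 and 421 CPM after αMARCO, and it fell by 0.999 ± 0.09 on the log2 scale. Rpl37 fell by 0.95 and Rps21 by 0.92. Over members, 12 with a coding length under 300 bases had a median of -0.94 and 72 longer ones -0.49. Spearman's rho between coding length and fold change was 0.37 across 84 members, a description, since members share libraries and depth. With αMARCO in Unc93b1 3d/3d, which includes the library that stood apart, it was 0.31 across 83. There 11 members under 300 bases had a median of 0.01 and 72 longer ones 0.59. Between genotypes rho was 0.01 in controls and -0.16 under αMARCO, each across 83.

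**Figure D4:**
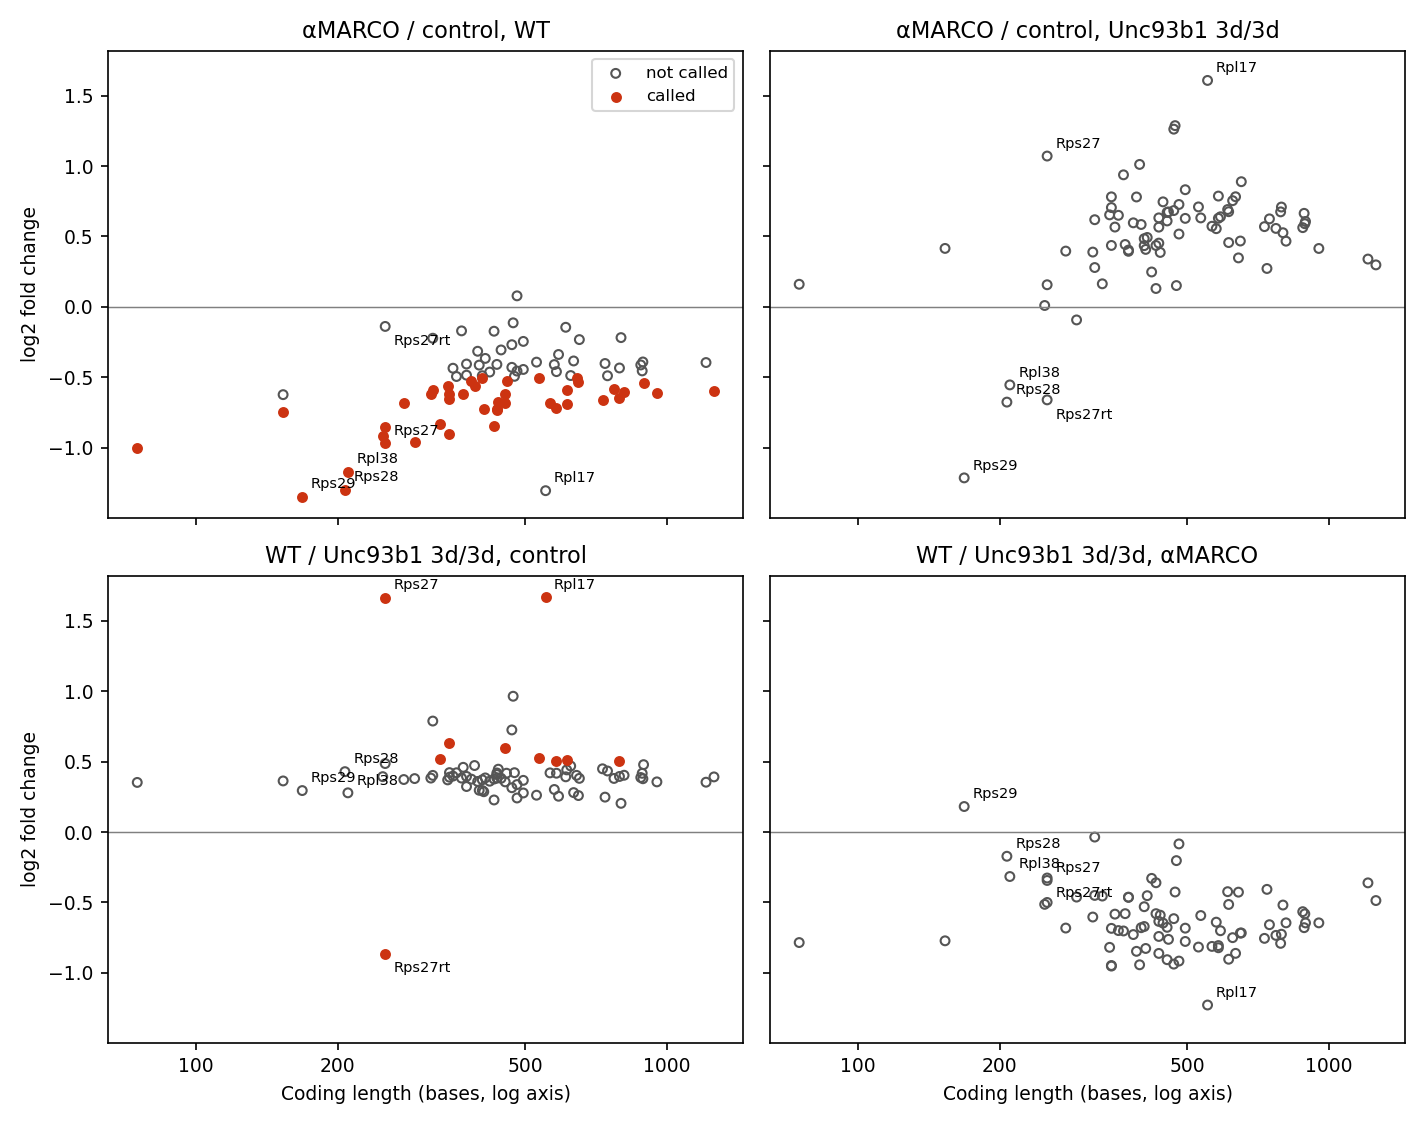
log2 fold change of tested members (y axis) against coding length in bases (x axis, log) in 4 comparisons; filled points were called. With αMARCO in WT short members have the lowest values apart from Rpl17, Rps29 is the lowest member in both αMARCO plots, and Rps27 and Rps27rt lie on opposite sides in controls.

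Members of the ribosomal stalk, which recruits the GTPase translation factors, fell in WT. Rplp0 had 1335 and 1214 CPM in control and 815 and 849 CPM after αMARCO, a fold change of -0.61. Rplp1 was at -0.56 and Rplp2 at -0.66, both called. After correction for gene length these 3 were at -0.29, -0.14 and -0.38, and none was called. Rpsa, the small-subunit protein also known as the laminin receptor precursor, was at -0.45 and did not reach the fold threshold.

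Members with roles outside the ribosome split across the fold threshold in WT. Rpl5 and Rpl11, which with 5S rRNA inhibit the p53 ligase MDM2, fell by 0.54 and 0.51, and were at -0.43 and -0.29 and not called after correction for gene length. Rps19, mutated in Diamond-Blackfan anemia, fell by 0.73 and Rps3, which also takes part in DNA repair, by 0.66, and both calls held after it. That correction used their deposited lengths of 4685 and 4483 bases, whereas their coding lengths are 435 and 729. Over 17 alternatives their highest fold changes were -0.42 and -0.40, short of the fold threshold. Rps6, the target of the S6 kinases, had 744 and 728 CPM in control and 512 and 532 CPM after αMARCO, a fold change of -0.49 that missed the fold threshold. Rpl26 at -0.41, Rps27a (a ubiquitin fusion) at -0.43 and Rpl13a at -0.14 were not called. The gene listed as Rpl13a held only 16.4 to 37.3 CPM.

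Within paralog pairs the common and the rarer copy were both measured where reads allowed. Rpl22 (fold change -0.53) was called in WT, and Rpl22l1 (-0.17) was not. Rps27l at -0.85, Rpl36a at -0.59, Rpl39 at -0.74, Rpl10 at -0.50, Rps4x at -0.64 and Rpl7 at -0.60 were called. Neither these nor Rpl22 were called after correction for gene length, where they lay between -0.46 (Rps27l) and -0.23 (Rpl10). Rpl3 at -0.39 and Rpl7l1 at -0.40 were not. Rpl39l and Rpl3l, copies known from testis and from striated muscle, reached at most 0.7 and 1.9 CPM and passed no filter over 8 libraries, and Rpl10l and Rps4l were not analysed here. Rpl36al, at 1.4 to 3.4 CPM, was too low to read.

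Copy number limits which members can be told apart. In 31 of the 85 every 50-base window of the coding sequence also occurs in a transcript of another gene, and in 4 none does. The median member shares 91.3% of windows. Rps29, Rps28, Rpl38 and Rpl41 are among the 31, so their levels and fold changes carry this limit. Counts over 175 genes with Rpl or Rps names and -ps stood at 5.33% to 6.17% of member counts in all libraries.

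Rps27 and Rps27rt carry the same coding sequence. Rps27 lies at chr3:90212522-90213651 and Rps27rt at chr9:114982366-114982739, both on the minus strand of GRCm38, and the 252 bases are 100% identical between them in GENCODE M21. The shared sequence is printed once, since reads within it cannot be told apart, and how the counting assigned them was not tested.
Rps27 and Rps27rt: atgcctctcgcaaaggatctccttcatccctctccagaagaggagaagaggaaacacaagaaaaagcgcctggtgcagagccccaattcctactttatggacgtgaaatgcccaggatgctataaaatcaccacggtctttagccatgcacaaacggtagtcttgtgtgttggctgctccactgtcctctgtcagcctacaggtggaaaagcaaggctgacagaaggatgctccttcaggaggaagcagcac

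Their split differed between the control groups by more than it did within them. In WT, Rps27 had 223 and 226 CPM without and 93.1 and 136 CPM with αMARCO. Its level in Unc93b1 3d/3d was 54.5 and 85.9 CPM without and 45.0 and 247 CPM with αMARCO. Rps27rt took 33.8% of the joint counts in both WT controls and 53.2% and 42.8% after αMARCO in WT. The same share was 79.1% and 70.7% in the Unc93b1 3d/3d controls and 77.4% and 30.2% after αMARCO there. The sum was 338 and 342 CPM in WT controls, then 199 and 238 CPM after αMARCO. For Unc93b1 3d/3d the sums were 261 and 293 CPM in controls, then 199 and 354 CPM. As 1 feature it fell by 0.63 ± 0.10 on the log2 scale with αMARCO in WT (adjusted P = 0.0012), and between genotypes in controls it was 0.28 ± 0.10 with an adjusted P of 0.074.

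Rpl17 showed the same kind of scatter with its 6 named pseudogenes, which held 2.87 times as many counts. Alone it had 210 and 179 CPM in WT controls and 53.9 and 102 CPM after αMARCO, and with the pseudogenes 568 and 553 CPM, then 375 and 415 CPM. For Unc93b1 3d/3d it had 75.2 and 46.0 CPM, then 134 and 233 CPM alone, and 395 and 433 CPM, then 423 and 802 CPM with them. The fold change with αMARCO in WT went from -1.30 ± 0.40 alone to -0.50 ± 0.09 summed. Summed, it was 0.42 ± 0.10 between genotypes in control and 0.58 ± 0.36 with αMARCO in Unc93b1 3d/3d. Between genotypes under αMARCO the summed value was -0.63 ± 0.35. Rps27rt was at -0.14 with αMARCO in WT and at 0.28 with the gene length correction. Rpl21, the only member above 0 in that comparison (0.08 ± 0.07), was at -0.17 ± 0.08 with its 12 pseudogenes.

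**Figure D5:**
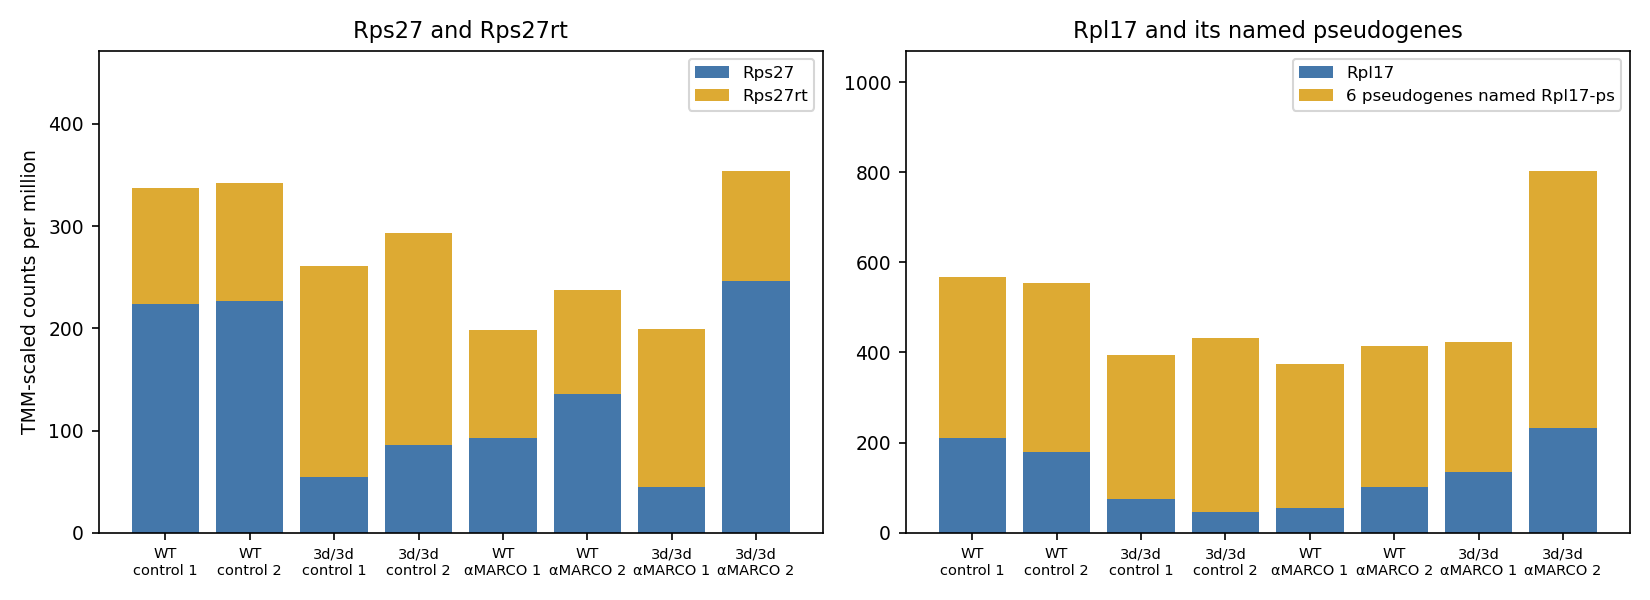
TMM-scaled CPM per library of Rps27 and Rps27rt (left) and of Rpl17 and its 6 named pseudogenes (right), stacked. Rps27rt takes 33.8% of its pair in both WT controls and 79.1% and 70.7% in the Unc93b1 3d/3d controls, and both totals are highest in the second Unc93b1 3d/3d αMARCO library.

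In control tumors, TAMs of WT mice held more ribosomal protein mRNA than those of Unc93b1 3d/3d mice, by a small amount in most members. The median member had a log2 fold change of 0.39 (WT over Unc93b1 3d/3d) with quartiles of 0.35 and 0.43, and the median gene was at -0.00. Both WT libraries lay above both Unc93b1 3d/3d libraries for 82 of 83 members, against 33.2% of genes, and Rps27rt, below, was the exception, against 29.9%. At the fold threshold 9 were higher, against 6.58% of genes, and 1 was lower, against 6.4%. Leaving out the first WT or the first Unc93b1 3d/3d control library left 6 calls in place of these 10. By adjusted P alone 62 were higher, where 10.2% of genes were, and 1 lower, against 8.6%. The 62 became 13 with the gene length correction, 17 without the first WT control library and 19 without the first Unc93b1 3d/3d control library. Each αMARCO comparison shares its control libraries with this one, so their values are not independent.

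Rpl17 (1.67 ± 0.25), Rps27 (1.66 ± 0.20) and Rps27rt (-0.86 ± 0.09), which share coding sequence with other genes, had the values farthest from 0 among these calls. Summed with its named pseudogenes, Rpl17 was at 0.42 ± 0.10, under the fold threshold. Rpl30, a large-subunit protein, was at 0.63 ± 0.12 with an adjusted P of 0.0075, and Rps13, of the small subunit, at 0.60 ± 0.11 with an adjusted P of 0.0082. Rpl11 at 0.52 was called, whereas Rpl5 at 0.48, Rps6 at 0.43, Rpsa at 0.42 and Rplp0 at 0.36 were not. With the gene length correction 3 were higher and 1 lower, against 4.63% and 6.41% of genes. The members' median less that of all genes went from 0.39 to 0.21. That correction put 9 of 83 members below 0, against 1 without it. In 1 model of 8 libraries edgeR called 0 of 83, with 5 at an unadjusted P under 0.05, and it called 249 of 16620 genes higher and 115 lower. DESeq2 on the 4 control libraries called 8 members, and 931 of 15600 genes higher and 879 lower.

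Lists of other cells also differed between the control groups. The T cell markers, at 260 and 267 CPM in WT control, summed to 148 and 110 CPM in the Unc93b1 3d/3d controls. NK cell markers were at 103 to 117 CPM against 40 to 54.7, dendritic cell markers at 678 to 953 CPM against 328 to 336, and the 12 B cell markers at 143 to 195 CPM against 79.4 to 83.6. The proliferation markers were at 1054 and 1196 CPM against 857 and 950. The endothelial markers were at 354 and 372 CPM against 189 and 172, and the fibroblast markers were lower in WT, at 119 and 95 CPM against 203 and 168. The B cell marker Cr2 was at 0 in 1 WT control library. Their part in the members' difference was not tested.

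In Unc93b1 3d/3d mice the members gave no call with αMARCO, and the sign of their median rested on 1 library. Of 83 tested, 0 were called by edgeR, as were 0% of 15428 genes, with 4 members at an unadjusted P under 0.05. DESeq2 called Rps29 lower and Rpl17 higher, where 32 of 15428 genes were higher and 28 lower. The median member was at 0.57, the median gene at 0.03. Both αMARCO libraries lay above both controls for 23 members, against 19.7% of genes, and below for 4 (Rps29, Rps28, Rpl38 and Rps27rt), against 19.2%. Without the second αMARCO library the median member was at -0.061 and 6 fell (Rps29, Rps28, Rpl38, Rpl37, Rpl41 and Rps21), against 1.81% of genes, and 0 rose, against 1.59%. With the gene length correction on all 4 libraries edgeR called 0 members and 0.00648% of genes lower, with 8 members and 1136 of 15428 genes at an unadjusted P under 0.05, and the median member was at 0.41. Without the first αMARCO library, and with no length correction, the median member was at 0.97. Rplp0 shows the pattern: 974 and 996 CPM in control against 953 and 1655 CPM in αMARCO libraries.

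Between replicates of this group the median member differed by 0.97 on the log2 scale, whereas the replicates of the other 3 groups differed by -0.05 to 0.13 (second minus first). Rps27a, every 50-base window of which also occurs in other genes, had 148 and 242 CPM in control and 133 and 792 CPM after αMARCO. Rps27rt lay in the other direction, with 206 and 207 CPM in control and 154 and 107 CPM after αMARCO.

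Between genotypes under αMARCO the same library decided the value. Of 83 members edgeR called 0, as it did 0% of 15722 genes, with 1 member and 1076 genes at an unadjusted P under 0.05. DESeq2 called 0 members, 140 genes higher and 74 lower. After correction for gene length edgeR again called 0 members, with 0.108% of genes higher and 0.0127% lower, and 4 members and 1530 genes were at an unadjusted P under 0.05. The median member was at -0.65 (WT over Unc93b1 3d/3d), and both WT libraries lay below both others for 46 members, against 22.2% of genes. Without the second Unc93b1 3d/3d library it was at -0.075, with 1 member higher (Rps27a) and 1 lower (Rps27rt), against 3.44% and 4.02% of genes. Without the first it was at -1.06 with 74 members lower, where 3058 of 16500 genes were lower and 3308 higher. In the full comparison the lowest were Rpl17 (-1.23 ± 0.43), Rps26 (-0.95 ± 0.47) and Rplp2 (-0.95 ± 0.48), and Rps29 was the highest at 0.18 ± 0.22. Without the second Unc93b1 3d/3d library these 4 were at -0.77, -0.12, -0.087 and 0.36, and Rps27 was the highest at 1.35.

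The difference between the αMARCO effects of the 2 genotypes was not called for any member by edgeR. The αMARCO effect in WT minus that in Unc93b1 3d/3d had a median of -1.07 over 83 members and a lowest adjusted P of 0.28, and 0% of 16620 genes were called. At an unadjusted P under 0.05 were 64 members and 2549 genes. DESeq2 called Rpl17 (-2.88) alone among members, with 110 genes higher and 101 lower. Without the library that stood apart the median difference was -0.48 and 14 members were called lower, against 1.79% of genes, Rpl5, Rps6 and Rps19 among them. With the gene length correction added, it was -0.28 and Rpl5 alone was called.

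Other lists are set beside the 11.8% of all genes called lower and 8.91% called higher with αMARCO in WT, and their difference from the members was not tested. Of 46 translation factors 5 fell with αMARCO (Eif5a, Eif1ax, Eef1b2, Eif2s3x and Eif3i) and Eif5b rose, with a median of -0.32. Of 55 ribosome biogenesis genes 4 fell and 2 rose, with a median of -0.20. Of 76 mitochondrial ribosomal proteins 25 fell, with a median of -0.40, and of 79 nuclear oxidative phosphorylation subunits 53 fell, with a median of -0.62. Proteasome subunits fell in 10 of 39, with a median of -0.39.

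After the gene length correction 6.5% of all genes were called lower. Of the lists, 8 oxidative phosphorylation subunits, 6 mitochondrial ribosomal proteins, 1 translation factor and no ribosome biogenesis gene or proteasome subunit were. Their medians were then -0.32, -0.18, -0.18, -0.03 and -0.17, beside -0.27 for the members and 0.10 for all genes. Eif1ax, an initiation factor that helps select the start codon, stayed at -0.61.

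Per coding length the members' levels spanned a wide range. Rpl41 had a mean over 8 libraries of 8427 CPM per kilobase of coding sequence, Rplp1 2496 and Rps29 2303. The lowest tested members were Rpl24 at 5.34, Rpl36al at 7.65 and Rpl13a at 37.0, and the median of all members was 865. In these 3 lowest at least 97.5% of 50-base coding windows also occur in other genes, and how the counting divided such reads was not tested. Rps19bp1, the non-ribosomal member, was at 45.1. Rpl7a, of the large subunit, had 161 to 210 CPM in 7 libraries and 337 CPM in the second Unc93b1 3d/3d αMARCO library, and Rpl24 had 1.2 to 4.4 CPM.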

How the data were processed

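Per the submitters' processing notes and the study's methods, poly(A) RNA libraries were trimmed with fastp, aligned to GRCm38 with HISAT2 2.0.5 and counted per gene with featureCounts 1.5.0. The deposited raw counts (whole reads per gene) in 3 comparison tables were merged on the gene identifier, which gave 26939 genes over 8 libraries, and counts held by more than 1 table were equal. The authors also deposited gene lengths, normalized counts, FPKM, and DESeq2 1.40.2 fold changes and p-values, and none but the gene lengths was used. Whether counting used strand, and how reads with several locations were treated, is not given in the sources used here, so copies and antisense partners cannot be told apart.

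edgeR 4.0.16 (R 4.3.3) fitted each pairwise comparison on its own 4 libraries with TMM scaling, filterByExpr and robust quasi-likelihood, and the difference of effects on all 8. Benjamini-Hochberg adjustment ran over all genes tested. CPM values are scaled by TMM over 8 libraries, and log2 CPM uses a prior count of 2. The length correction fits a smooth curve of deviation against log10 gene length in each library (mgcv 1.9.3) to protein-coding genes that are no member and enters it as an offset. Scripts were tested on simulated data. Positions and sequences come from GENCODE M21 (79 of 85 members at the deposited position) and RefSeq.

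Members given with values were the stalk proteins and Rpsa, 8 paralog pairs, 8 members with roles beyond the ribosome, the 3 highest and 3 lowest by fold change in each pairwise comparison, and the 3 highest and lowest by level per coding length. The members and lists were chosen with earlier results of these data known. Alternatives were DESeq2 1.42.0, its size factors, TMM without the members, other count filters, a replicate block, corrections for length and GC, all libraries in 1 model, and leaving out each library.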

Additional observations from a re-analysis of the deposited data

How the results depend on the processing

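Counts of called members and median log2 fold changes are given here where an alternative moved them. With αMARCO in WT, 43 calls became 13 with the gene length correction, 13 with length and GC, 11 with coding length, 2 with all 8 libraries in 1 model, 4 with that model and length, and 73 without a fold threshold. Of 15630 genes, 1016, 989 and 1188 were called lower under the 3 corrections and 19% without a fold threshold. In the 8-library models 119 and 274 of 16620 genes were. The median of -0.52 became -0.27, -0.24 and -0.24 under the 3 corrections and -0.29 in the 8-library model with length. Between genotypes in control, 10 calls became 4, 4 and 3 under the same corrections, 0 and 1 in the 8-library models and 63 without a fold threshold, and the median became 0.15, 0.14, 0.15 and 0.17. Of 15600 genes, 722, 718 and 730 were called higher and 1000, 1003 and 909 lower under the corrections. In the 8-library models 249 and 337 of 16620 genes were higher and 115 and 308 lower. With αMARCO in Unc93b1 3d/3d, 0 calls became 2 with DESeq2, 4 without a low-count filter and 2 in the 8-library model with length. Genes called higher and lower there were 32 and 28 of 15428, 87 and 87 of 24858, and 27 and 30 of 16620. For the difference of effects, DESeq2 made 1 call, and the median became -0.62, -0.64 and -0.60 under the corrections. For the mean αMARCO effect the coding length correction gave 4 calls, where 380 of 16620 genes were higher and 385 lower. The causes were not tested.

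Leaving out 1 library at a time gave 36 to 54 calls with αMARCO in WT, 0 to 75 in Unc93b1 3d/3d, 6 to 15 between genotypes in control, 0 to 74 under αMARCO, 0 to 80 for the difference and 0 to 12 for the mean effect. The medians ran from -0.061 to 0.97 in Unc93b1 3d/3d, from -1.06 to -0.075 between genotypes under αMARCO and from -1.48 to -0.48 for the difference. Without the second Unc93b1 3d/3d αMARCO library and with the length correction, these 3 comparisons had medians of 0.014, -0.093 and -0.28.

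Replicate numbers are shared between groups, and the labels do not say whether they pair libraries. Replicate differences correlated by -0.00 to 0.14 between the groups of a comparison, which cannot exclude a pairing. The replicate block left 43, 0, 10, 0 and 0 calls in the 4 pairwise comparisons and the difference, as without it. Under the block 1770 of 15630 genes were lower and 1316 higher with αMARCO in WT. Between genotypes in control 1187 of 15600 were lower and 1208 higher. With αMARCO in Unc93b1 3d/3d 4 of 15428 were lower and 1 higher. Between genotypes under αMARCO 34 of 15722 were lower and 63 higher, and for the difference 0 of 16620 were called. The block with the length correction gave 14 and 5 calls and medians of -0.27 with αMARCO in WT, 0.15 between genotypes in control and -0.61 for the difference. It called 998 of 15630 genes lower with αMARCO in WT, and between genotypes in control 840 of 15600 higher and 1130 lower.

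The length profile in equal-number bins was 0.20 in the second WT control and -0.29 in the first Unc93b1 3d/3d control library. With αMARCO in WT, 11 of 84 members were above 0 with the gene length correction, against 1 without it. Among the named members signs turned as follows. Under length, length and GC, block with length, coding length, and 8 libraries with length, Rps27rt was at 0.28, 0.32, 0.28, 0.16 and 0.25, Rpl22l1 at 0.11, 0.085, 0.11, 0.13 and 0.092, and Rpl13a at 0.13, 0.13, 0.12, 0.14 and 0.11. Rpl21 with its pseudogenes was at -0.17. With αMARCO in Unc93b1 3d/3d, leaving out the second αMARCO library put Rplp0 at -0.047 and Rps27a at -0.56, and leaving out the first put them at 0.76 and 2.04. Without the second, Rps27a was at -0.50 with the length correction.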
